A study of Homo sapiens with 24 samples.

Results

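Expression of 9 genes of short-chain fatty acid oxidation and ketone body metabolism was examined in HCT-116 human colorectal carcinoma cells exposed to butyrate. The genes were taken by symbol: ACSM3, ACADS, ECHS1, HADH, ACAA2, ACAT1, BDH1, CPT1A and PDK4. They are 9 of the 27249 genes named on the array and are read by 11 of its 34127 probes, ACAT1 by 3 probes and each of the others by 1. All 11 probes were among the 18966 that were tested, tested probes being those with a signal well above background throughout the 6 arrays of any 1 treatment. On all 24 arrays, 10 of the 11 were well above background, and the PDK4 probe missed this on 1 untreated array.

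The cells had been stably transfected with a Tet repressor vector and a vector for Tet-inducible DN-Tcf4, a dominant-negative form of the Wnt effector Tcf4, and had then been clonally selected, so that every array carries both vectors. Each of 6 experiments held 4 treatments: no agent (Ctl), 5 mM sodium butyrate (NaB), 4 µg/ml doxycycline (Doxy), and doxycycline followed by both agents (DoxyNaB), with 17.5 hr of treatment. The NaB/Ctl comparison gives the response of the 9 genes to butyrate, and the DoxyNaB/Doxy comparison gives it in the presence of doxycycline. Levels below are log2 values of the background-subtracted signal, scaled by the 75th percentile of each array, so that 0 is the 75th percentile and a difference of 1 is a 2-fold difference. A level belongs to its probe, and levels of different probes are not compared. RNA came from whole cultures, so fewer cells with a transcript and less of it per cell cannot be told apart.

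Butyrate is the main fuel of the normal colonic epithelium. It is joined to coenzyme A by an acyl-CoA synthetase and oxidised in the mitochondrion by a spiral of dehydrogenation, hydration, a further dehydrogenation and thiolysis, which releases acetyl-CoA. Acetyl-CoA can enter the citric acid cycle or be turned into the ketone bodies acetoacetate and β-hydroxybutyrate. Long-chain fatty acids, unlike butyrate, need the carnitine system to enter the mitochondrion, and pyruvate competes with fatty acids as a source of acetyl-CoA.

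The sequences below show what was read for the genes of butyrate activation (ACSM3), the oxidation spiral (ACADS, ACAT1) and carnitine entry (CPT1A). Each is the 60-base probe as deposited, 5′ to 3′, with its position in the NCBI36 build. The ACADS probe covers 284 bases of the genome and therefore crosses a splice junction. The 3 ACAT1 probes lie apart within the gene and share no position.
ACSM3, chr16:20700539-20700598, + strand: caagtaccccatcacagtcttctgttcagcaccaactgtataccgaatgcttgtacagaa
ACADS, chr12:119661068-119661351, + strand: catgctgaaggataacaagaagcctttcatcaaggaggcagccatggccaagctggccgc
ACAT1, chr11:107511093-107511152, + strand: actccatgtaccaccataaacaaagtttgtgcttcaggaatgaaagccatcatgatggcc
ACAT1, chr11:107517568-107517627, + strand: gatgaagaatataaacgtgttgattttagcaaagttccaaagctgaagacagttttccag
ACAT1, chr11:107523219-107523278, + strand: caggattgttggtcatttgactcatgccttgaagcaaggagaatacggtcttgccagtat
CPT1A, chr11:68283639-68283698, - strand: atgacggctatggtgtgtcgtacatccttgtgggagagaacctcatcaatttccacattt

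Of the genes whose expression passed 2-fold with butyrate, PDK4 and BDH1 have an entry among the RefSeq promoters used here, and the 250 bases before each of their annotated starts (GRCh38.p14) are shown because these genes moved in opposite directions. Capitals mark the GC box, GGGCGG on either strand. BDH1 has a pair of annotated starts.
PDK4, chr7:95596517-95596766, - strand: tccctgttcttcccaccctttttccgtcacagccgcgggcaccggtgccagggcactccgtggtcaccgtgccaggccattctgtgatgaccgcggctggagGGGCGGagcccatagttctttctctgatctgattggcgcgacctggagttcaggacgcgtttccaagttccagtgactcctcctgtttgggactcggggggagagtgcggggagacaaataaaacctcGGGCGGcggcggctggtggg
BDH1, chr3:197555969-197556218, - strand: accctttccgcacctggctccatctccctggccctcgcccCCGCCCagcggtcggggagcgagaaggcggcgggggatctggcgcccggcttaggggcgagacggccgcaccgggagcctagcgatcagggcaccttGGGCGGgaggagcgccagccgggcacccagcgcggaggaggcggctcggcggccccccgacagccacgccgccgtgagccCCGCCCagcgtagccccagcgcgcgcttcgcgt
BDH1, chr3:197573344-197573593, - strand: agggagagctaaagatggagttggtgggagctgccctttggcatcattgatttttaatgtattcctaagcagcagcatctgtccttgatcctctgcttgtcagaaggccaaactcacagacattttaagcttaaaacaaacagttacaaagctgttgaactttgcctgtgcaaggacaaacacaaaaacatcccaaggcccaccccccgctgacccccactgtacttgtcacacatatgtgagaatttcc
The PDK4 window held 2 GC boxes, the first BDH1 window 3 and the second 0. RefSeq entries were found for 8 of the 9 genes, with 11 windows in all, and 6 of the 11 held a GC box, against 42.6% of 35116 such windows of all genes. The nuclear receptor half-site AGGTCA was found on either strand in 0 of the 11 windows and in 12.1% of all windows. The Tcf core CTTTGA was found in 1 of the 11, at a HADH start, and in 11.2% of all windows. No window of the 9 genes held more than 1 of these 3 motifs. A match describes the letters and does not show that a factor binds there.

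The share of spots well above background was 78.4% to 88.1% in experiments 2 to 4, which were scanned together, and 52.7% to 62.6% in the others. Experiments 2 to 6 each lay on 1 slide. In experiment 1 the butyrate arrays lay on another slide than Ctl and Doxy, so slide and butyrate cannot be told apart there. TCF7L2, which encodes Tcf4, is the gene of the inducible vector. The level of its probe with the largest DoxyNaB/NaB change had a median of -5.79 on Ctl (lowest -6.45, highest -4.36) and -5.15 on the arrays labelled Doxy (lowest -7.25, highest -4.41). The median was -3.65 on NaB (lowest -4.85, highest -2.61) and 0.59 on DoxyNaB (lowest -0.60, highest 1.63). Between Doxy and Ctl this probe differed by 0.30 (limma adjusted p = 0.861), whereas it rose by 4.46 in DoxyNaB/NaB (limma adjusted p = 1.77e-06). The other 2 tested TCF7L2 probes changed by -0.17 and 0.36 in Doxy/Ctl and by 2.96 and -1.25 in DoxyNaB/NaB. On the first probe the arrays labelled Doxy thus overlapped the untreated ones, and Doxy is used below as the name of the treatment only. The study reported DN-Tcf4 protein on western blot as minimal with doxycycline alone and high with both agents. Of 9 markers of colon epithelium, KRT8, KRT18, KRT19, CDH1 and CDX2 were well above background on 24 arrays and EPCAM on 22, whereas KRT20 was on 13, LGALS4 on 12 and VIL1 on 5. Among markers of other cell types, APOA1 (hepatocyte) was so on 24 arrays, COL1A1 (fibroblast) on 23 and CDH5 (endothelial cell) on 22. PTPRC, CD3E, COL1A2, PECAM1 and ALB were so on 10 to 15 arrays.

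A gene was called when its representative probe changed more than 2-fold with a limma adjusted p under 0.01. In NaB/Ctl, 3 of the 9 genes were called, ACSM3 and PDK4 higher and BDH1 lower, where 31.7% of all tested probes were called. At the same p without a fold limit, 6 of the 9 genes rose (ACSM3, ACADS, ECHS1, ACAA2, CPT1A and PDK4) and 3 fell (HADH, ACAT1 and BDH1). Of all tested probes 68.2% passed, 40.1% higher and 28.2% lower. The share of the 9 genes called is thus near that of the whole array. Their median log2 change was 0.27, beside 0.17 for all tested probes. In DoxyNaB/Doxy the same 3 genes were called in the same directions, where 30.6% of tested probes were. Of the others, ACADS and ECHS1 rose, HADH and ACAT1 fell, and CPT1A and ACAA2 did not pass, so that 7 of the 9 genes passed the p limit, where 67.0% of tested probes did, 37.3% higher and 29.7% lower. The median change of the 9 genes was 0.18 there, beside 0.10 for all tested probes. With a limit of 1.5-fold, 5 of the 9 genes were called in each comparison, where 51.7% and 50.6% of tested probes were. The arrays of NaB and Ctl did not overlap for 6 of the 9 genes, against 43.1% of tested probes, and those of DoxyNaB and Doxy did not for 5 of the 9, against 41.5%. Between Doxy and Ctl and between DoxyNaB and NaB the arrays overlapped for all 9 genes, where 0.949% and 1.67% of tested probes did not overlap.

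**Figure D1:**
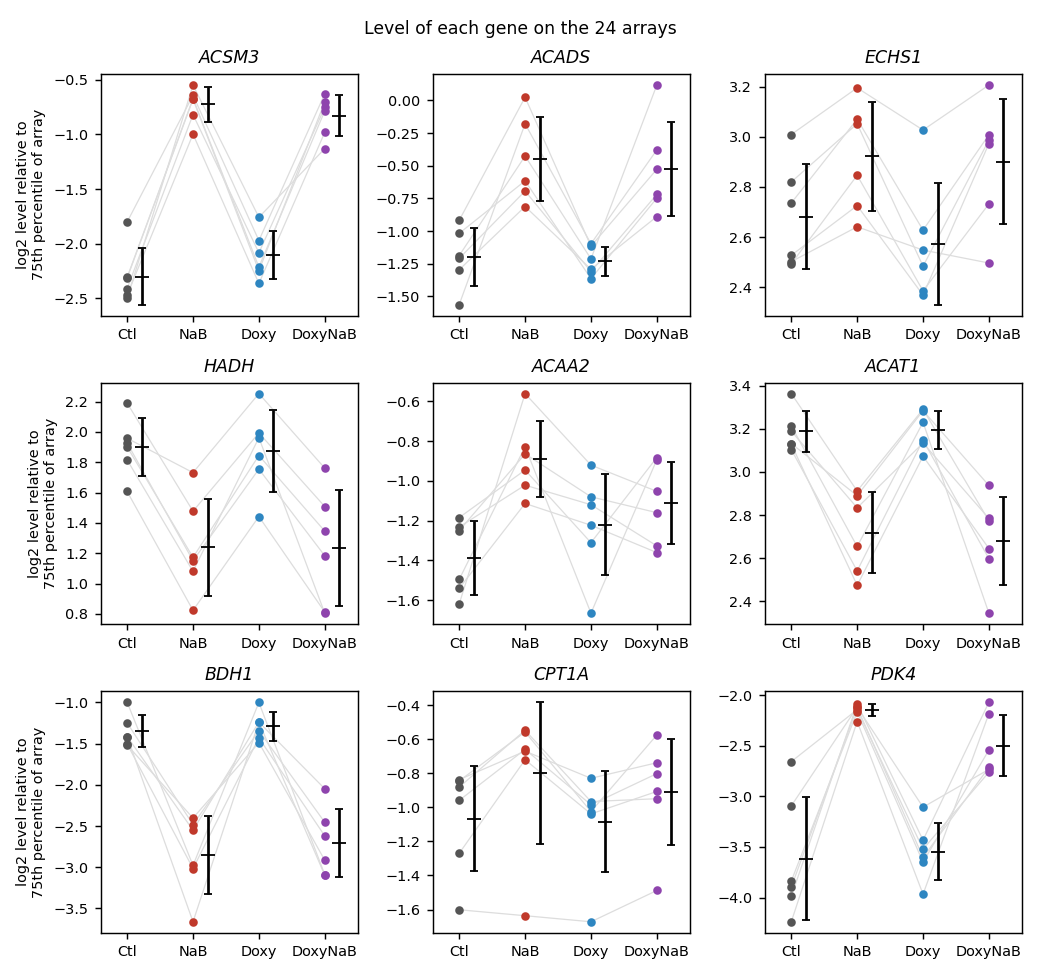
Log2 level of each of the 9 genes relative to the 75th percentile of the array, by treatment (points are single arrays, 6 per treatment; grey lines join the arrays of an experiment; bars are mean ± SD). ACSM3 stood higher and BDH1 lower on every butyrate array than on every array without butyrate, 3 of the 6 DoxyNaB arrays of PDK4 lay below its highest Ctl array, and the experiment 1 arrays were the lowest for CPT1A in all 4 treatments.

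Butyrate activation. ACSM3 encodes a mitochondrial acyl-CoA synthetase that acts on short- and medium-chain fatty acids, butyrate among them. Its level had a median of -2.36 on the Ctl arrays (lowest -2.50, highest -1.80) and -0.68 on NaB (lowest -0.998, highest -0.55). On Doxy the median was -2.15 (lowest -2.36, highest -1.76) and on DoxyNaB -0.77 (lowest -1.13, highest -0.63). All 12 butyrate arrays were above all 12 arrays without butyrate. Expression of ACSM3 increased 2.98-fold in NaB/Ctl (log2 change 1.57, SE 0.10, limma adjusted p = 1.41e-10), and it rose in 6 of 6 experiments. In DoxyNaB/Doxy it increased 2.42-fold (log2 change 1.28, SE 0.10, limma adjusted p = 2.61e-09), again in 6 of 6. This was the largest rise among the 9 genes in both comparisons over all experiments. In DoxyNaB/Doxy the single-experiment changes of ACSM3 were 1.33 to 1.54 in experiments 1 to 5 and 0.63 in experiment 6. The NaB/Ctl change of ACSM3 was 1.46 in experiments 2 to 4, below that of PDK4 (1.55), and 1.79 in experiments 5 and 6, and with the normexp background correction it was 1.06.

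The oxidation spiral. ACADS, the short-chain acyl-CoA dehydrogenase, carries out the first oxidation of butyryl-CoA. The median level was -1.20 on Ctl (lowest -1.56, highest -0.92) and -0.52 on NaB (lowest -0.81, highest 0.02). It was -1.25 on Doxy (lowest -1.36, highest -1.10) and -0.62 on DoxyNaB (lowest -0.89, highest 0.12). Neither pair of groups overlapped. ACADS rose 1.68-fold in NaB/Ctl (log2 change 0.75, SE 0.13, limma adjusted p = 6.73e-05) and 1.63-fold in DoxyNaB/Doxy (log2 change 0.71, SE 0.13, limma adjusted p = 0.000122). Both changes went the same way in 6 of 6 experiments and stayed below the 2-fold limit. In experiments 2 to 4 the NaB/Ctl change was 1.03, and in experiments 5 and 6 it was 0.46 (limma adjusted p = 0.0106).

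ECHS1, the short-chain enoyl-CoA hydratase, adds water to the product of ACADS. Its level had a median of 2.63 on Ctl (lowest 2.49, highest 3.01) and 2.95 on NaB (lowest 2.64, highest 3.20). The corresponding values were 2.52 on Doxy (lowest 2.37, highest 3.03) and 2.98 on DoxyNaB (lowest 2.50, highest 3.21). These groups overlapped, while within experiments NaB was above Ctl in 6 of 6 and DoxyNaB above Doxy in 5 of 6. The rise was 1.18-fold in NaB/Ctl (log2 change 0.24, SE 0.07, limma adjusted p = 0.00565) and 1.25-fold in DoxyNaB/Doxy (log2 change 0.33, SE 0.07, limma adjusted p = 0.000489). The ECHS1 probe was printed in 10 spots per array, and the SD of log2 signal over the spots of an array had a median of 0.06 and a highest value of 0.11. This SD covers spots of 1 array and not cultures. The ECHS1 change did not pass the p limit within experiments 2 to 4 (0.23, limma adjusted p = 0.14) or experiments 5 and 6 (0.28, limma adjusted p = 0.050).

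HADH, the mitochondrial hydroxyacyl-CoA dehydrogenase for short and medium chains, carries out the second oxidation. Medians were 1.91 on Ctl (lowest 1.61, highest 2.19) and 1.16 on NaB (lowest 0.82, highest 1.73). They were 1.90 on Doxy (lowest 1.44, highest 2.25) and 1.26 on DoxyNaB (lowest 0.80, highest 1.76). The ranges overlapped, but the level fell with butyrate within each of the 6 experiments in both comparisons. HADH was 1.58-fold lower in NaB/Ctl (log2 change -0.66, SE 0.09, limma adjusted p = 2.22e-06) and 1.56-fold lower in DoxyNaB/Doxy (log2 change -0.64, SE 0.09, limma adjusted p = 3.46e-06). The dehydrogenase before the hydratase and the dehydrogenase after it therefore moved in opposite directions.

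The last step, thiolysis, is shared by enzymes of different chain length. ACAA2 is the mitochondrial 3-ketoacyl-CoA thiolase. Its level had a median of -1.37 on Ctl (lowest -1.62, highest -1.18) and -0.90 on NaB (lowest -1.11, highest -0.56), without overlap. On Doxy the median was -1.17 (lowest -1.67, highest -0.92) and on DoxyNaB -1.11 (lowest -1.36, highest -0.88), with overlap. ACAA2 rose 1.41-fold in NaB/Ctl (log2 change 0.50, SE 0.12, limma adjusted p = 0.00117), in 6 of 6 experiments. With the normexp correction this change was 0.29 (limma adjusted p = 0.118), and after quantile normalization it was 0.14 (limma adjusted p = 0.635). In DoxyNaB/Doxy the change was 0.11 (SE 0.12, limma adjusted p = 0.431), with 2 experiments higher and 4 lower. The difference between these responses was 0.39 (95% confidence interval 0.03 to 0.75, limma adjusted p = 0.355), so a difference between them was not established.

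ACAT1 is the mitochondrial acetoacetyl-CoA thiolase, which cleaves acetoacetyl-CoA and, run backwards, makes it for ketone body synthesis. On its representative probe, the one with the highest mean level (chr11:107523219-107523278), the median was 3.16 on Ctl (lowest 3.104, highest 3.36) and 2.74 on NaB (lowest 2.47, highest 2.91). It was 3.19 on Doxy (lowest 3.07, highest 3.29) and 2.71 on DoxyNaB (lowest 2.35, highest 2.94). The groups did not overlap in either comparison. ACAT1 was 1.39-fold lower in NaB/Ctl (log2 change -0.47, SE 0.07, limma adjusted p = 1.37e-05) and 1.43-fold lower in DoxyNaB/Doxy (log2 change -0.51, SE 0.07, limma adjusted p = 5.08e-06). The other 2 probes gave -0.41 and -0.39 in NaB/Ctl and -0.61 and -0.50 in DoxyNaB/Doxy, and all 3 probes fell in 6 of 6 experiments in both comparisons. Levels of HADH and ACAT1, centred on each experiment, ran closely together over the 24 arrays (r = 0.98, a description over arrays that share treatments), and this was the highest correlation among the 36 pairs of the 9 genes.

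Ketone bodies. BDH1, the mitochondrial β-hydroxybutyrate dehydrogenase, interconverts acetoacetate and β-hydroxybutyrate. Its level had a median of -1.41 on Ctl (lowest -1.52, highest -0.997) and -2.76 on NaB (lowest -3.66, highest -2.40). On Doxy the median was -1.29 (lowest -1.49, highest -1.001) and on DoxyNaB -2.77 (lowest -3.10, highest -2.05). All butyrate arrays lay below all arrays without it. BDH1 expression was 2.83-fold lower in NaB/Ctl (log2 change -1.50, SE 0.18, limma adjusted p = 4.66e-07) and 2.66-fold lower in DoxyNaB/Doxy (log2 change -1.41, SE 0.18, limma adjusted p = 1.02e-06), in 6 of 6 experiments each. It was the only called gene of the 9 that fell. The NaB/Ctl change was -1.09 in experiments 2 to 4 and -1.88 in experiments 5 and 6. With the normexp correction the DoxyNaB/Doxy change was -0.71, below the 2-fold limit.

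Fuel entry and choice. CPT1A, the outer-membrane carnitine palmitoyltransferase, admits long-chain fatty acids to the mitochondrion. Its median level was -0.92 on Ctl (lowest -1.60, highest -0.84) and -0.67 on NaB (lowest -1.64, highest -0.55). It was -1.005 on Doxy (lowest -1.67, highest -0.83) and -0.85 on DoxyNaB (lowest -1.49, highest -0.58). The lowest array of each treatment was that of experiment 1. CPT1A rose 1.20-fold in NaB/Ctl (log2 change 0.27, SE 0.07, limma adjusted p = 0.00286), in 5 of 6 experiments. In DoxyNaB/Doxy the change was 0.18 (SE 0.07, limma adjusted p = 0.0359), with 6 of 6 experiments higher. Its probe was also printed in 10 spots, whose SD within an array had a median of 0.09 and a highest value of 0.28. With the normexp correction the NaB/Ctl change was 0.16 (limma adjusted p = 0.167).

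PDK4 is a kinase that switches off the pyruvate dehydrogenase complex and so spares pyruvate when fatty acids are burned. The level of PDK4 had a median of -3.87 on Ctl (lowest -4.24, highest -2.66) and -2.13 on NaB (lowest -2.26, highest -2.09). On Doxy the median was -3.56 (lowest -3.97, highest -3.11) and on DoxyNaB -2.63 (lowest -2.76, highest -2.07). NaB did not overlap with Ctl, nor DoxyNaB with Doxy, and the 6 NaB arrays lay within 0.17 of each other while the Ctl arrays spread over 1.58. PDK4 rose 2.77-fold in NaB/Ctl (log2 change 1.47, SE 0.21, limma adjusted p = 3.94e-06) and 2.06-fold in DoxyNaB/Doxy (log2 change 1.05, SE 0.21, limma adjusted p = 0.000176), in 6 of 6 experiments each. The single-experiment changes in NaB/Ctl ran from 0.51 in experiment 5 to 1.98 in experiment 1. In DoxyNaB/Doxy the change was 0.90 without experiment 1 and 0.98 without experiment 2, each below the 2-fold limit. The PDK4 probe was dim, and its NaB/Ctl change was 0.55 with the normexp correction (limma adjusted p = 0.041) and 0.50 after quantile normalization (limma adjusted p = 0.168), so neither its call nor its size held under those settings.

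**Figure D2:**
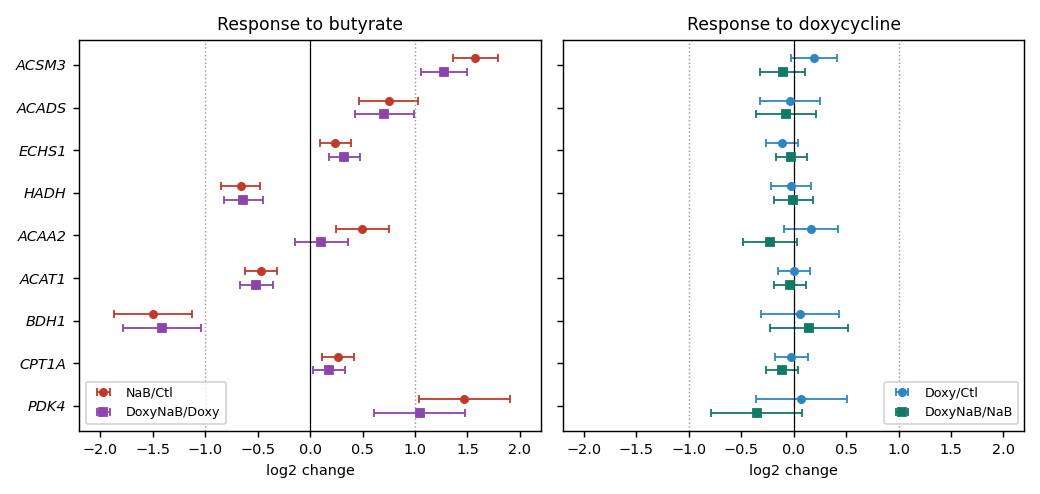
Log2 change of the 9 genes in response to butyrate (left) and to doxycycline (right), with 95% confidence intervals from limma over 6 experiments (dotted lines mark a 2-fold change). ACSM3 and PDK4 lay above and BDH1 below the 2-fold lines with butyrate, and every interval for doxycycline included 0.

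Doxycycline and the butyrate response. In Doxy/Ctl, 0 of the 9 genes were called by limma, where 0.0949% of tested probes were, and 0 had an unadjusted p under 0.05 by limma, where 12.6% of tested probes had one, or by the methods' t-test. The log2 changes ran from -0.11 (ECHS1) to 0.19 (ACSM3). In DoxyNaB/NaB, 0 of the 9 genes were called by limma, where 0.38% of tested probes were. There 0 had an unadjusted p under 0.05 by limma, where 15.4% of tested probes had one. By the methods' t-test 2 had one, PDK4 (log2 change -0.35) and ACAA2 (-0.22), both lower. The share of all probes at this limit was not computed for that test. Changes of the 9 genes ran from -0.35 (PDK4, 95% confidence interval -0.79 to 0.08) to 0.14 (BDH1, interval -0.23 to 0.52). The difference between the butyrate responses without and with doxycycline passed a limma adjusted p of 0.01 for 0 of the 9 genes, where 1.24% of tested probes passed. At an unadjusted p under 0.05, 1 of the 9 did so by limma, which was ACAA2, where 12% of tested probes did. By the methods' t-test it was PDK4 alone, whose response was smaller with doxycycline in 5 of 6 experiments. The share of all probes was again not computed for that test. The limma count is thus near the share of the whole array. For PDK4 this difference was 0.42 (interval -0.19 to 1.04) and for ACSM3 0.30 (interval -0.01 to 0.60). The ACSM3 difference was 1.32 in experiment 6 and lay between -0.18 and 0.26 in experiments 1 to 5. The BDH1 difference was -0.09 (interval -0.62 to 0.44). These intervals leave room for differences of about 1.5-fold in ACSM3 and 2-fold in PDK4, and values of p that miss the threshold do not show that the responses were equal.

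**Figure D3:**
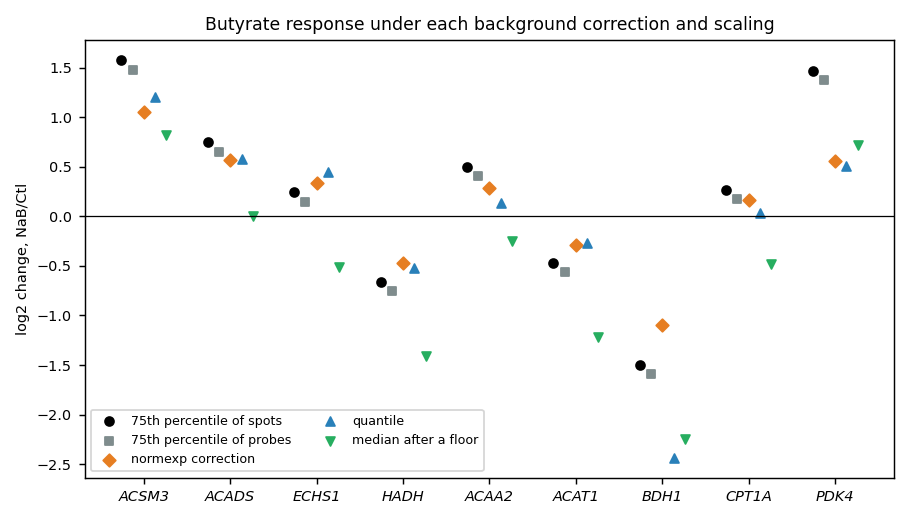
Log2 change of the 9 genes in NaB/Ctl with the arrays scaled to the 75th percentile of spots (as reported) or of probes, with the normexp background correction, after quantile normalization, and scaled to the median after a floor. ACSM3 and PDK4 stayed above 0 and HADH, ACAT1 and BDH1 below 0 in all 5 settings, whereas ACADS, ECHS1, ACAA2 and CPT1A lay below 0 with median scaling.

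The directions depend on how the arrays were scaled to each other, as the plot of the settings shows. The median NaB/Ctl change over all tested probes was 0.17 as reported, 0.07 with the normexp correction, -0.09 after quantile normalization and -0.58 with median scaling. Of the called probes of the whole array, 65.3% were higher as reported, 52.9% with normexp, 43.8% with quantile normalization and 21.2% with median scaling. Under median scaling ACADS (-0.0016), ECHS1 (-0.51), ACAA2 (-0.25) and CPT1A (-0.48) turned below 0, against a median of -0.58 for all probes. ACSM3 (0.82) and PDK4 (0.72) stayed above 0 there but below the 2-fold limit, whereas BDH1 (-2.25), HADH (-1.41) and ACAT1 (-1.22) were called lower. With median scaling, 0 of the 9 genes were thus called higher and 3 lower in NaB/Ctl, and likewise 0 and 3 in DoxyNaB/Doxy, where 41.0% and 36.9% of all tested probes were called in the 2 comparisons. In that setting ECHS1 (-0.23), ACAA2 (-0.45) and CPT1A (-0.38) lay below 0 in DoxyNaB/Doxy. Set against the median of all tested probes in the same setting, the NaB/Ctl changes under both 75th percentiles and under median scaling are nearly equal by construction, since these settings shift each array by a constant. With the normexp correction and quantile normalization, which do not, all 9 genes had the reported direction relative to that median. Over the 5 settings, and relative to that median, ACSM3 lay between 0.99 and 1.40, PDK4 between 0.48 and 1.30, BDH1 between -2.34 and -1.16, and CPT1A between 0.09 and 0.12. The ECHS1 and CPT1A values as reported stood only 0.07 and 0.10 above the median of all probes, less than the SD of the CPT1A change over the 6 experiments (0.19) and that of ECHS1 (0.09).

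Other genes of the same routes were taken from a list of 62, of which 61 were on the array and 49 were tested. In NaB/Ctl, 14 were called higher and 2 lower, beside 20.7% and 11% of all tested probes. In DoxyNaB/Doxy, 12 were called higher and 4 lower, beside 18.3% and 12.3%. This balance also turned with median scaling, where 2 of the 49 were called higher and 12 lower in NaB/Ctl and 3 higher and 9 lower in DoxyNaB/Doxy. The 14 and the 12 called higher include ACSL6 and OXCT2, which were tested only through butyrate arrays, where they were high. With probes required well above background on all 24 arrays, 44 genes were tested. Of these, 12 were called higher and 2 lower in NaB/Ctl, and 10 and 3 in DoxyNaB/Doxy. Of all probes so tested, 26.7% and 26.3% were called. The median log2 change of the 49 genes was 0.44 and 0.46, beside 0.17 and 0.10 for all tested probes. By limma, each gene called higher below rose in 6 of 6 experiments.

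Among the 7 tested acyl-CoA synthetases, 4 were called higher in NaB/Ctl. These were the acetyl-CoA synthetase ACSS2 (1.13) and the long-chain synthetases ACSL1 (1.56), ACSL3 (1.08) and ACSL6 (1.72), each value a log2 change. The ACSL6 probe was well above background on 6 NaB arrays but 4 Ctl arrays, and on 5 DoxyNaB and 4 Doxy arrays, so it was tested only because of the NaB arrays, where it was high, and its values rest partly on background. In DoxyNaB/Doxy the ACSL genes were called again (1.67, 1.03 and 1.46), and ACSS2 (0.93) fell short of 2-fold. Of the 7 tested acyl-CoA dehydrogenases, 4 passed the p limit higher and 2 lower in each comparison. ACADSB, which acts on short branched chains, rose 3.65-fold (log2 change 1.87, SE 0.08, limma adjusted p = 7.38e-13) in NaB/Ctl, and ACAD10 rose by 1.43. The lowest change of the 7 in NaB/Ctl was -0.83, that of ACADM, with a mean level of -0.58 on Ctl and -1.41 on NaB. ETFDH, which passes electrons from these dehydrogenases to the respiratory chain, rose by 1.63, while ETFA and ETFB, its partner subunits upstream, were not called. None of the 6 tested genes of hydration, isomerisation and hydroxyacyl-CoA dehydrogenation was called by limma in either comparison, and in NaB/Ctl 2 of them passed the p limit higher and 2 lower, without reaching 2-fold.

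Carnitine entry and its control gave 3 called genes in NaB/Ctl. CPT2, the inner-membrane partner of CPT1A, rose by 1.14 in NaB/Ctl and by 0.97 in DoxyNaB/Doxy, the latter short of 2-fold. ACACB, which makes the malonyl-CoA that inhibits CPT1 enzymes, rose by 1.54, and MLYCD, which destroys malonyl-CoA, rose by 1.46. A called gene on each side of this control thus rose. ACACA, which also makes malonyl-CoA, changed by -0.34 in NaB/Ctl and by -0.30 in DoxyNaB/Doxy, without passing the p limit. The peroxisomal thiolase ACAA1 rose by 1.28.

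For ketone body use, the OXCT2 probe differed by 1.77 in NaB/Ctl. Its signal exceeded background clearly on the 6 NaB and the 6 DoxyNaB arrays, but on 4 Ctl and 5 Doxy arrays, so it too was tested only through the groups where it was high. OXCT1, the widely expressed transferase that activates acetoacetate, fell by 0.91 in NaB/Ctl and by 1.03 in DoxyNaB/Doxy, the latter called. The OXCT1 probe thus moved in the direction of BDH1 and ACAT1, enzymes that share its route.

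Among regulators of pyruvate dehydrogenase, PDK3 rose by 1.73 and 1.89 in the 2 comparisons, like PDK4, and PDK1 (0.62) and PDK2 (0.36) rose less than 2-fold in NaB/Ctl. PDP1, a phosphatase that opposes the PDK enzymes, fell by 0.60 in NaB/Ctl and by 1.52 in DoxyNaB/Doxy, the latter in 5 of 5 experiments because its DoxyNaB spot of experiment 6 was left out. Of the 6 tested transcriptional regulators, PPARD rose by 1.46, whereas PPARG fell by 1.93 and its partner RXRA by 1.16 in NaB/Ctl. PPARA, which drives fatty acid oxidation and ketogenesis in liver, changed by 0.15 in NaB/Ctl (limma adjusted p = 0.142). In DoxyNaB/Doxy PPARA passed the p limit higher without reaching 2-fold, with a mean level of -1.74 on Doxy and -1.27 on DoxyNaB. PPARGC1A and HNF4A were not tested, being well above background on 5 and 12 arrays.

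**Figure D4:**
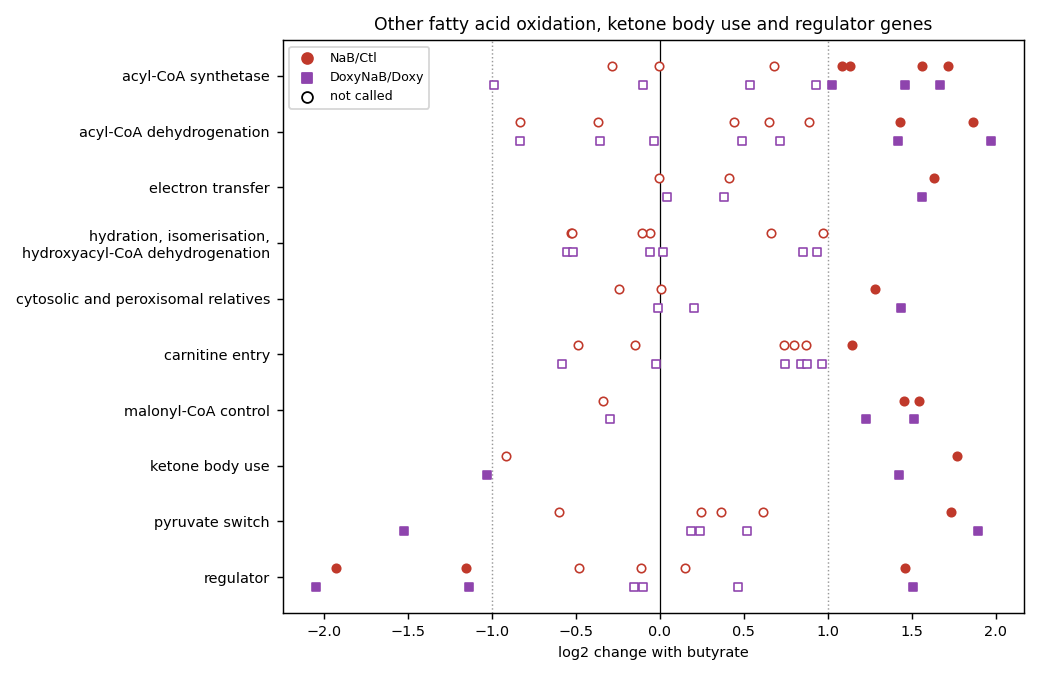
Log2 change with butyrate of tested genes of the wider list, by role (circles NaB/Ctl, squares DoxyNaB/Doxy; filled symbols are called genes; dotted lines mark a 2-fold change). Filled symbols on the left belong to the regulators PPARG and RXRA in both comparisons and to OXCT1 and PDP1 in DoxyNaB/Doxy. All other filled symbols lie on the right.

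The probes whose levels followed ACSM3 most closely over the 24 arrays, after centring on each experiment, were those of EAF2 (r = 0.99), TDRKH (r = 0.99) and GRB14 (r = 0.99). For BDH1 they were ATF5 (r = 0.99), PAK6 (r = 0.99) and TMCO4 (r = 0.99). These correlations describe arrays that share 4 treatments, and the like genes changed by 1.90, 2.10 and 1.20 and by -1.68, -1.37 and -2.01 in NaB/Ctl.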

How the data were processed

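RNA of 24 cultures (4 treatments, 6 numbered experiments, each treatment once per experiment) was hybridised singly to Agilent 1-colour human arrays. Per the file headers, Agilent Feature Extraction 9.5.3.1 made the deposited intensity values, subtracting background and spatial trend within each array; no scaling between arrays was stated in the sources used here, and GeneSpring and a paired t-test were named in the methods. Control spots and 359 to 795 outlier spots per array were left out, spots of a probe were averaged, and the log2 intensity was set relative to the 75th percentile of non-control spots (380.2 to 1323 in signal). At most 3 spots per array were saturated. Symbols of 25102 probes were updated through RefSeq accessions; the 9 genes used the names in the files.

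limma 3.58.1 in R 4.3.3 fitted all 24 arrays with the experiment as a block, Benjamini-Hochberg adjusted over 18966 probes. Pairing follows the methods; deviations of same-experiment arrays correlated between -0.22 and 0.85 (35 of 36 pairs over 0.1). The interaction was the NaB/Ctl change minus the DoxyNaB/Doxy change. A gene with several probes is represented by its tested probe of highest mean level. All 9 genes are named, other genes where called with butyrate, and the 3 most alike genes for the 2 genes of largest change. Genes, lists and tests were chosen with earlier results of these data known. Alternatives were the normexp correction (offset 50), quantile and median scaling, other filters and thresholds, blocks, the methods' t-test, means over probes, and leaving out experiments or arrays. The 75th percentile over probes was added after the data were seen. The number of arrays limits the precision. Python 3.11.15 and matplotlib 3.10.9 drew the figures. The fit was tested on simulated data. Some genes of the wider list enter its counts and are not reported here.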

Additional observations from a re-analysis of the deposited data

Results flagged for a closer look

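In 44 groups of 6 arrays (11 probes, 4 treatments), 4 held an array far from the other 5, where chance gives about 1 group in 20. For CPT1A these were the experiment 1 arrays of NaB (level -1.64) and Doxy (level -1.67). For ACSM3 it was the experiment 3 array of Ctl (level -1.80), which gave the smallest single-experiment NaB/Ctl change of that gene, 1.16. On 1 of the 3 ACAT1 probes it was the experiment 2 array of DoxyNaB (level -0.0065), the array with the highest negative controls of the 24 (net signal 249). Without this array and that of next highest negative controls (NaB of experiment 3, 161), experiment 3 has no NaB/Ctl pair. The NaB/Ctl change of ACSM3 over the remaining arrays was 1.61, beside 1.57 over all arrays.

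The butyrate response of PDP1, the pyruvate dehydrogenase phosphatase, differed between cells without and with doxycycline by 0.92 on the log2 scale (95% confidence interval 0.66 to 1.19, limma adjusted p = 0.00035). PDP1 fell by 0.60 in NaB/Ctl and by 1.52 in DoxyNaB/Doxy, and the difference had this direction in 5 of 5 experiments, the DoxyNaB spot of experiment 6 being left out as an outlier. It was 1 of 236 probes (1.24% of those tested) that passed this test.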

How the results depend on the processing

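With the normexp correction, 1 of the 9 genes and 10 of the wider list were called in DoxyNaB/Doxy, where 19.8% of tested probes were. In NaB/Ctl these counts were 2 and 11, where 16.3% of tested probes were. After quantile normalization 1 of the 9 was called in DoxyNaB/Doxy and 2 in NaB/Ctl, where 29.5% and 29.7% of tested probes were. With a 1.5-fold limit, 5 of the 9 genes were called in each butyrate comparison, and 28 and 27 of the wider list in NaB/Ctl and DoxyNaB/Doxy, where 51.7% and 50.6% of all tested probes were. With median scaling 3 of the 9 were called in each, as reported, but 0 higher and 3 lower (HADH, ACAT1 and BDH1), and the wider list gave 2 higher and 12 lower in NaB/Ctl and 3 higher and 9 lower in DoxyNaB/Doxy. Leaving out 1 experiment at a time gave 3 of the 9 genes each time in NaB/Ctl and 2 to 3 in DoxyNaB/Doxy, with PDK4 lost without experiment 1 or 2, and 16 to 17 and 15 to 18 of the wider list. In Doxy/Ctl, DoxyNaB/NaB and the interaction, 0 of the 9 were called by limma or the methods' t-test under any alternative run. Without the replicate block that pairs the arrays of an experiment, 3 of the 9 were called in each butyrate comparison, and 15 and 16 of the wider list. Median scaling turned ACADS (-0.0016), ECHS1 (-0.51), ACAA2 (-0.25) and CPT1A (-0.48) below 0 in NaB/Ctl and ECHS1 (-0.23), ACAA2 (-0.45) and CPT1A (-0.38) in DoxyNaB/Doxy, where the last 2 had not passed the p limit as reported; the cause was not tested. Not every alternative could move the single-gene counts that follow, which use the p limit only. The 1.5-fold limit left them as reported, and an adjusted p limit of 0.05 could not lose a gene that passed 0.01. Means over probes left the change of each gene with 1 probe as it was. Of 206 single-gene values under alternatives in NaB/Ctl, 169 kept their direction and side of the p limit, 33 lost the limit and 4 turned. ACSM3 and BDH1 kept both in all 23 alternatives in either comparison. PDK4 lost the limit in 3 of 22 in NaB/Ctl and 4 of 22 in DoxyNaB/Doxy. In NaB/Ctl, ECHS1 lost it in 10 of 23, CPT1A in 11 of 23 and ACAA2 in 5 of 23. These counts leave out the 2-fold limit of a call. In DoxyNaB/Doxy ACSM3 did not reach 2-fold with quantile normalization (0.95) or median scaling (0.72). Nor did BDH1 (-0.71) and PDK4 (0.79) with normexp, or PDK4 with slide as a block (0.92). There 1 gene was called higher and 1 lower with the 75th percentile over probes and without the 2 arrays of highest negative controls. Experiments 2 to 4 alone and 5 and 6 alone gave the same counts. The PDK4 probe was the only 1 of the 11 not well above background on every array.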
